A study of Mus musculus with 12 samples.

Results

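Olfr1507, Olfr1508 and Olfr1509 are olfactory receptor genes of mouse chromosome 14 that are known to depend on the H element, an enhancer of their cluster. Olfr221 is another receptor gene of chromosome 14, and it was chosen by its measured rise in animals that carry a deletion on chromosome 7. The 3 H element receptors were chosen by their known control, by gene symbol, and not by a measured value. These 4 genes are 4 of 39395 gene rows, of 39 receptor rows on chromosome 14 and of 1121 rows for class II receptors.

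Total RNA of the olfactory mucosa was sequenced from 6 deletion and 6 wild-type male mice, 1 library per animal, at postnatal day 30 and on a mixed 129S6;C57BL/6J background. The deletion removes 408217 bp of chromosome 7 (GRCm38, chr7:102509797-102918014) within the cluster of class I receptor genes, and the labels tie it to an enhancer of that class. It does not touch chromosome 14. The labels do not state how many copies of the deletion an animal carries, and they do not say whether littermates were compared.

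Each mature olfactory sensory neuron expresses 1 allele of 1 receptor gene out of a very large family. Class I receptors lie in a single cluster on chromosome 7, whereas class II receptors are spread over many chromosomes. Enhancers of receptor clusters, the H element first among those described, are bound by the transcription factors Lhx2 and Ebf1 with the cofactor Ldb1. In mice without the H element, the receptor genes nearest to it lose expression in cis. Receptor genes are also restricted to zones of the epithelium, and Olfr1507, long known as MOR28, is a classic receptor of the ventral part. In a bulk library, fewer neurons that express a receptor and less receptor RNA per neuron cannot be told apart.

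The 3 H element receptors lie side by side on chromosome 14 (positions of GENCODE M21 on GRCm38). Olfr1509 (ENSMUSG00000035626.4) is on the plus strand at chr14:52442990-52452574. Olfr1508 (ENSMUSG00000057564.6) is on the minus strand at chr14:52458829-52467495, and Olfr1507 (ENSMUSG00000059887.7) follows on the minus strand at chr14:52488791-52495749. Together they span 52.76 kb. Olfr221 (ENSMUSG00000044286.6) lies on the minus strand at chr14:52033962-52042459, 400.5 kb from Olfr1509. The coding sequences are uninterrupted and of similar length, 939 bases for Olfr1507, 930 for Olfr1508, 924 for Olfr1509 and 933 for Olfr221, without the stop codon.

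The first 120 coding bases of the 3 H element receptors, read from GRCm38 on the coding strand, are shown because the closeness of Olfr1507 and Olfr1508 bears on how their reads could be told apart. Capitals mark bases that differ from Olfr1507 at the same position counted from the start codon.
Olfr1507: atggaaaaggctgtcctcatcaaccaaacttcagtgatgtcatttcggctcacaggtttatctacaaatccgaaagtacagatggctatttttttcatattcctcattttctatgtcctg
Olfr1508: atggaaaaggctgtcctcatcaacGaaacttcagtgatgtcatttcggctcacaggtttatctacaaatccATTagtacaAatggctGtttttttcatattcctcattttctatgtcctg
Olfr1509: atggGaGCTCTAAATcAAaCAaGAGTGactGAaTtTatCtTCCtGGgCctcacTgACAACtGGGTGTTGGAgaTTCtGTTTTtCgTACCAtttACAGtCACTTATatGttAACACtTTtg

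In these stretches Olfr1508 differed from Olfr1507 at 6 positions and Olfr1509 at 79. Over the aligned coding sequences, Olfr1507 and Olfr1508 were identical at 92.1% of positions, with a longest identical run of 143 bases. Olfr1509 was 63.8% identical to Olfr1507 and 64.4% to Olfr1508, and Olfr221 was 55.0%, 56.2% and 54.9% identical to Olfr1507, Olfr1508 and Olfr1509 in that order. Of all 50-base windows of its exons, Olfr1507 shared 6.09% with another annotated gene and Olfr1508 3.02%, and 167 of these windows were common to both. Olfr1509 shared 0 of 2669 such windows and Olfr221 1 of 3187. How reads that fit both Olfr1507 and Olfr1508 were assigned was not given in the sources used here, so the split between these neighbours is uncertain to that extent.

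Recovered reads per library ranged from 10091239 to 18612011. The 30 genes that lie whole inside the deletion had 3 reads in all over the 6 deletion libraries and 10880 over the 6 wild-type libraries, so every library matched its label. Deletion replicates 2 and 3 stood apart: 80.6% and 94.6% of gene rows had a read in them, against 67.2% to 75.6% in the other deletion libraries and 65.2% to 69.3% in the wild-type libraries. Fold changes, levels, class II shares, spread and correlations among the 4 genes are therefore also given without these libraries. Each deposited value is a gene's reads scaled by 1 factor per library, called a normalized count here. Omp, which marks mature olfactory neurons, had 56675 normalized counts in deletion animals and 60163 in wild-type animals. Gap43, which marks immature neurons, had 1394 and 1413 in the same order. Dpysl3, also listed as a marker of immature neurons, had 8278 and 6863 (limma adjusted p = 0.069).

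None of the H element receptors passed the test between deletion and wild-type animals, and the spread between animals of 1 genotype was wider than the difference between genotypes. Olfr221 was 1.96-fold higher in deletion animals, the contrast it was chosen for. Both observations are visible in the plot of normalized counts per animal.

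**Figure D1:**
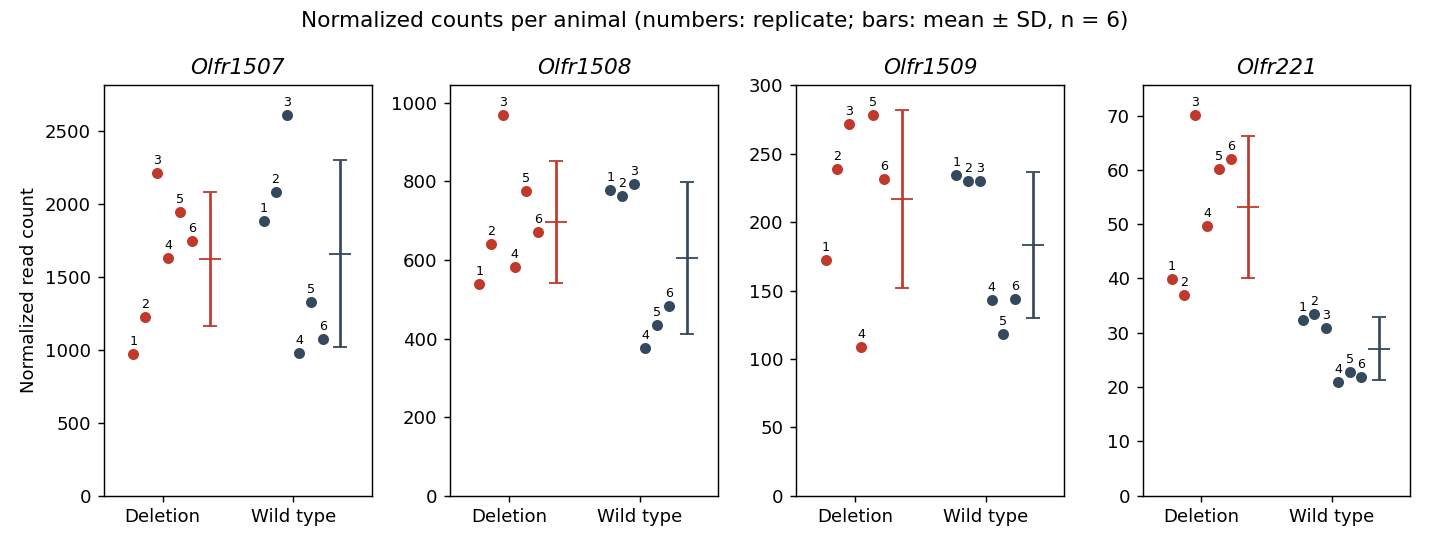
Normalized read counts (vertical axis, starting at 0) of Olfr1507, Olfr1508, Olfr1509 and Olfr221 in each of 6 deletion and 6 wild-type animals, with the replicate number above each point and the mean ± SD beside each group. The groups overlap for the 3 H element receptors, and for Olfr221 the lowest deletion animal, at 37.0, lies above the highest wild-type animal, at 33.5.

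Olfr1507, the MOR28 gene and the best studied target of the H element, had its lowest deletion value at 969, its median at 1686 and its highest value at 2214 normalized counts. In wild-type animals the lowest value was 976, the median 1603 and the highest 2607. The groups covered almost the same range, and each held animals that differed more than 2-fold from one another (highest over lowest 2.29 in deletion and 2.67 in wild-type animals). The means were 1622 ± 459 in deletion and 1657 ± 640 in wild-type animals (SD, n = 6 each). The log2 fold change was 0.01 ± 0.29 (SE; limma adjusted p = 0.992), with a 95% interval from -0.63 to 0.64. Changes between 0.646-fold and 1.56-fold are thus within the interval, and smaller shifts were not detectable with this spread.

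Olfr1508, also known as Mor10, had between 539 and 968 normalized counts in deletion animals with a median of 656, and between 376 and 793 with a median of 623 in wild-type animals. The means were 696 ± 156 in deletion and 605 ± 193 in wild-type animals (SD, n = 6 each). The ranges of the genotypes overlapped. The log2 fold change was 0.24 ± 0.22 (SE), its 95% interval ran from -0.25 to 0.73, and it did not pass (limma adjusted p = 0.955).

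Olfr1509, also known as Mor83, had between 109 and 278 normalized counts in deletion animals with a median of 235, and between 118 and 234 with a median of 187 in wild-type animals. The lowest value of all 12 animals was that of deletion replicate 4, although this animal was close to the median for Olfr1507. The means were 217 ± 65.1 in deletion and 183 ± 53.6 in wild-type animals (SD, n = 6 each). The log2 fold change of 0.23 ± 0.25 (SE) did not pass (limma adjusted p = 0.955), with a 95% interval from -0.32 to 0.78. Without deletion replicate 4 it was 0.41, with a 95% interval from 0.006 to 0.82, which lies above 0. After adjustment over all genes it did not pass either (limma adjusted p = 0.997).

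Over all 17320 tested genes, 9 were higher and 77 lower in deletion animals at an adjusted p under 0.05, which is 0.052% and 0.445% of them. The H element receptors gave 0 calls of 3 by limma, by edgeR and by DESeq2. With all 12 libraries, the limma count at an unadjusted p under 0.05 was also 0. Without deletion replicates 2 and 3 the log2 fold changes were -0.03 for Olfr1507, 0.14 for Olfr1508 and 0.08 for Olfr1509. In the authors' deposited table, which gives wild type over deletion, the log2 fold changes were 0.01 for Olfr1507, -0.08 for Olfr1508 and -0.07 for Olfr1509, with adjusted p-values of 0.999, 0.988 and 0.988 in that order. The deposited estimates for the last pair of genes are smaller in size than those computed here, and how they were moderated was not given in the sources used here.

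Class II receptors as a group lay above 0 in this comparison. The median log2 fold change over 859 tested class II genes was 0.18, and 87.3% of them were positive, while the median over all tested genes was -0.01. The sum of class II counts was lower in wild-type replicates 4, 5 and 6 than in the other wild-type animals. The part of these animals in the class II median was not tested. Set against the class II median, Olfr1507 lay at -0.18, Olfr1508 at 0.06 and Olfr1509 at 0.05. Counted from the highest fold change, Olfr1507 was number 747 of 859, Olfr1508 number 300 and Olfr1509 number 320. When libraries were scaled to class II receptor reads, the fold change of Olfr1507 turned to -0.15, and the share of class II genes above 0 was 57.3%.

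As a share of all class II receptor reads, Olfr1507 made up 1.62% ± 0.398 in deletion and 1.82% ± 0.569 in wild-type animals (SD, n = 6 each). The 3 H element receptors together made up 2.54% ± 0.573 in deletion and 2.69% ± 0.741 in wild-type animals (SD, n = 6 each). Within this sum Olfr1507 held 63.5% ± 4.78 in deletion and 67.2% ± 3.41 in wild-type animals. Olfr1508 held 27.8% ± 2.90 in deletion and 25.1% ± 2.40 in wild-type animals, and Olfr1509 held 8.70% ± 2.30 and 7.70% ± 1.28 in the same order. The order of the 3 genes was therefore the same in both genotypes. Without deletion replicates 2 and 3, the sum in deletion animals was 2.31% ± 0.382 of class II reads (SD, n = 4), with Olfr1507 at 64.7%, Olfr1508 at 27.1% and Olfr1509 at 8.24% of it.

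Levels can be compared between genes per kilobase of exon. On that scale Olfr1507 had 564 ± 160 normalized counts per kb in deletion and 576 ± 222 in wild-type animals (SD, n = 6 each), the highest mean of all 1121 class II rows in both genotypes. Olfr1508 followed with 120 ± 26.9 per kb in deletion and 104 ± 33.4 in wild-type animals. Olfr1509 had 84.2 ± 25.3 per kb in deletion and 71.1 ± 20.8 in wild-type animals. The ranges over animals of Olfr1508 and Olfr1509 overlapped, but in each of the 12 animals Olfr1507 was above Olfr1508 and Olfr1508 above Olfr1509 per kb. Olfr221 stood far below, at 16.9 ± 4.17 per kb in deletion and 8.62 ± 1.85 in wild-type animals, number 580 and 751 of the 1121 rows in that order. Without deletion replicates 2 and 3, the 4 deletion animals left had 546 ± 147 per kb for Olfr1507, again the highest class II mean, 111 ± 18.0 for Olfr1508, 76.7 ± 28.5 for Olfr1509 and 16.8 ± 3.25 for Olfr221 (SD, n = 4). The next class II genes per kb after Olfr1507 were Olfr536, at 405 in deletion and 380 in wild-type animals, and Olfr727 of chromosome 14, at 346 and 287 in the same order.

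Olfr221, for which RefSeq also gives the name MOR205-1, is a receptor with few counts in this tissue. In deletion animals its normalized counts were 40.0, 37.0, 70.0, 49.7, 60.1 and 62.0 for replicates 1 to 6. In wild-type animals they were 32.4, 33.5, 30.9, 20.9, 22.8 and 21.9. Every deletion animal lay above every wild-type animal, and the gap between the groups was narrow, from 33.5 to 37.0. The means were 53.2 ± 13.1 in deletion and 27.1 ± 5.80 in wild-type animals (SD, n = 6 each), a log2 fold change of 0.94 ± 0.19 (SE). These values chose the gene and are given as a description.

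Few reads stand behind Olfr221: 33 to 76 per deletion library and 18 to 41 per wild-type library. Its coefficient of variation was 24.6% in deletion and 21.4% in wild-type animals, while counting error alone gives 13.7% in deletion and 18.9% in wild-type animals. The wild-type spread was thus close to counting error in size. Among the wild-type animals, however, log2(value + 1) of Olfr221 correlated at 0.92 with Olfr1507, 0.97 with Olfr1508 and 0.93 with Olfr1509. For Olfr1507, counting error gives 2.48% in deletion and 2.41% in wild-type animals against measured values of 28.3% and 38.6%. As a share of class II reads, Olfr221 ranged from 0.044% to 0.072% in deletion and from 0.025% to 0.034% in wild-type animals, again without overlap. Without deletion replicates 2 and 3 its log2 fold change was 0.95, and its share in deletion animals ran from 0.044% to 0.056%. The authors' deposited table gives -0.31 for wild type over deletion, on its own scale. All these values come from the libraries that chose the gene, so they only describe it.

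Among 859 tested class II receptors, limma called 1 higher (0.116%), edgeR 2 and DESeq2 3. The limma call was Olfr221 itself, whose choice used this contrast, so nothing is read from it. In 4 of the 859 (0.466%), every deletion animal was above every wild-type animal: Olfr221, Olfr432, Olfr986 and Olfr1415. Of 786 class II genes with a mean of at least 20 normalized counts, Olfr221 was number 3 by fold change. Just above it stood Olfr888, with 35.5 ± 34.6 in deletion and 12.2 ± 8.28 in wild-type animals, and Olfr713, with 50.4 ± 19.4 in deletion and 22.2 ± 5.10 in wild-type animals (SD, n = 6 each). Just below stood Olfr51, Olfr397 and Olfr161, with log2 fold changes of 0.76, 0.73 and 0.72. In each of these 5 genes the values of the genotypes overlapped. The plot of level against change places Olfr221 among all tested class II genes.

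**Figure D2:**
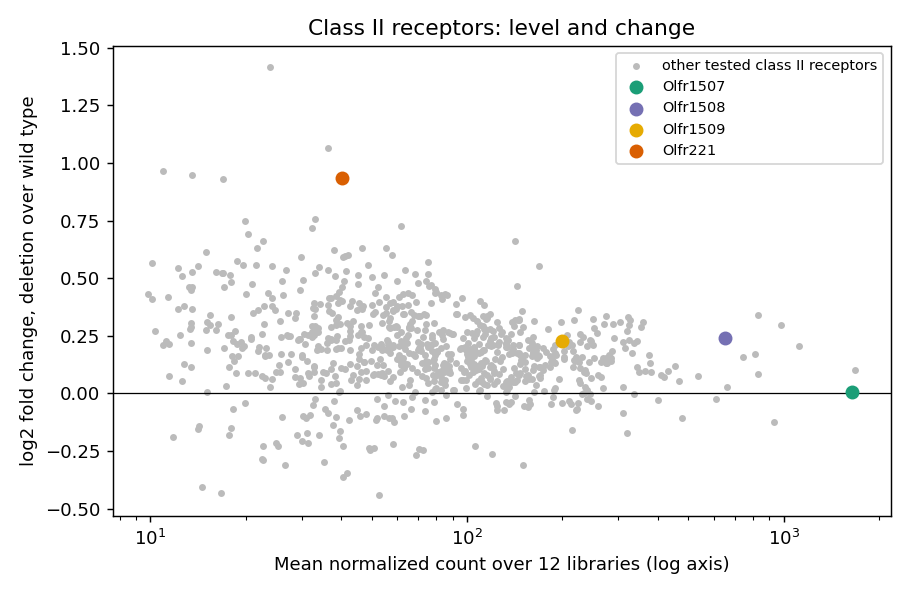
Each point is a tested class II receptor gene, with its mean normalized count over 12 libraries on a log axis and its log2 fold change, deletion over wild type, on the vertical axis. Olfr1507 and Olfr1508 lie at the high end of the level axis with fold changes of 0.01 and 0.24, Olfr1509 lies lower on that axis with 0.23, and Olfr221 lies at a low level with 0.94.

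On chromosome 14, 36 of 39 receptor rows were tested. Of the 35 other than Olfr221, 0 were called in either direction by limma, by edgeR or by DESeq2. At an unadjusted p under 0.05 limma gave 5 higher (14.3%) and 0 lower, close to the 11.9% higher among all tested class II receptors, where 2.02% of all tested genes were higher. Their median log2 fold change was 0.21, and 27 of 35 were positive, beside the class II median of 0.18. The range ran from -0.16 for Olfr742 to 0.66 ± 0.24 (SE) for Olfr49, which had 177 normalized counts in deletion and 107 in wild-type animals and did not pass (limma adjusted p = 0.955). Most receptors of this chromosome form a block from Olfr723 to Olfr750, 25 of whose 27 rows were tested, with a median of 0.21.

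**Figure D3:**
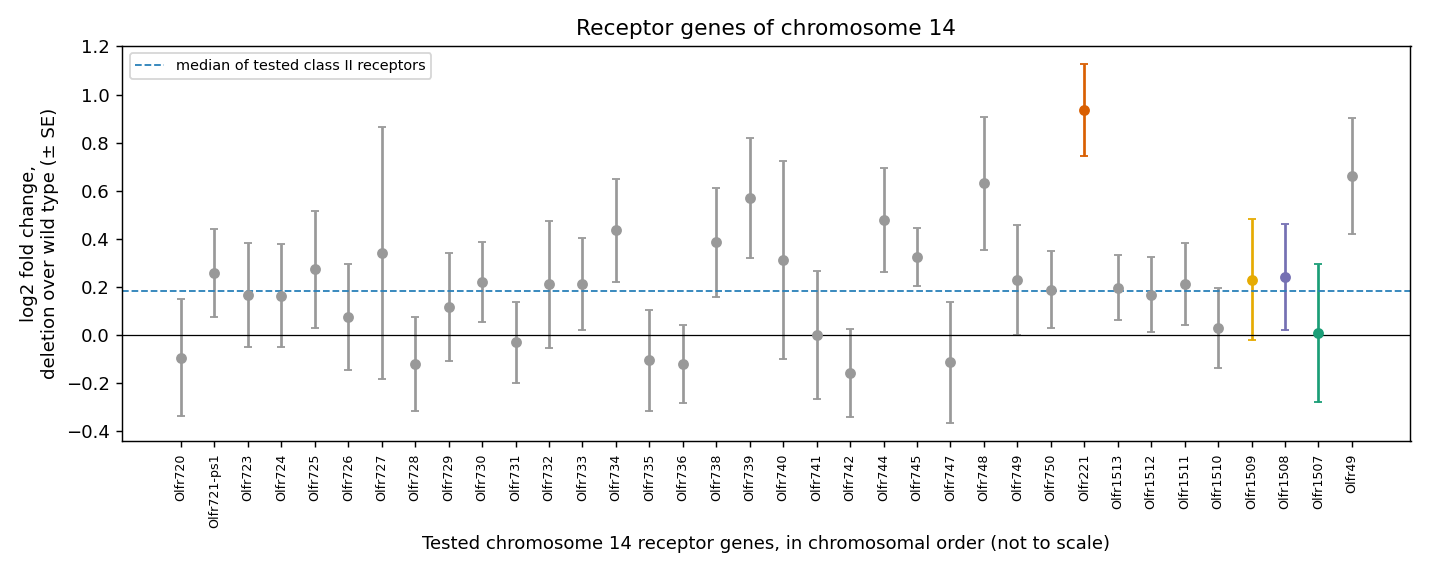
Log2 fold change, deletion over wild type, with its SE, for the 36 tested receptor genes of chromosome 14 in chromosomal order (not to scale). Olfr221 stands at 0.94, and the other 35 genes lie between -0.16 and 0.66.

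Both sides of Olfr221 were examined. The nearest receptors on 1 side, Olfr750 at 959.5 kb and Olfr749 beyond it, had log2 fold changes of 0.19 and 0.23. On the other side, Olfr1513 at 305035 bp had 0.20 and Olfr1512 had 0.17. None of these 4 passed. Of 11 tested genes other than receptors within 200 kb of Olfr221, 0 were called by limma, edgeR or DESeq2, with 1 higher and 1 lower at an unadjusted limma p under 0.05. Within 200 kb of the H element receptors, 4 such genes were tested and 0 called by these tools, again with 1 higher and 1 lower at an unadjusted limma p under 0.05.

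Olfr1510, Olfr1511, Olfr1512 and Olfr1513 continue the H element cluster beyond Olfr1509, within 148.3 kb in all. Their log2 fold changes were 0.03, 0.21, 0.17 and 0.20, with a median of 0.18, the same as that of class II. Olfr1511 was the highest of them, with 86.1 normalized counts per kb in deletion and 73.1 in wild-type animals, close to Olfr1509. The Olfr1510 values ran from 40.4 to 83.8 normalized counts in deletion animals and from 50.7 to 76.2 in wild-type animals, so the groups overlapped.

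The 4 genes shared a pattern among animals that the genotype does not describe. In wild-type animals, replicates 1, 2 and 3 were above replicates 4, 5 and 6 for each of Olfr1507, Olfr1508, Olfr1509 and Olfr221. The share of class II receptors, or of all tested genes, with this split was not counted. Whether the split is particular to these 4 genes was therefore not tested. For Olfr1507 this was 1880, 2083 and 2607 normalized counts against 976, 1325 and 1073. For Olfr1508 it was 779, 763 and 793 against 376, 435 and 484. The sum of class II counts was also lower in wild-type replicates 4, 5 and 6 than in 1, 2 and 3. As shares of class II reads the split remained for each of the 4 genes. For Olfr1507 the shares were 1.96%, 2.07% and 2.72% against 1.20%, 1.74% and 1.24%. Among deletion animals, replicate 3 was the highest for Olfr1507, Olfr1508 and Olfr221, and replicate 1 the lowest for Olfr1507 and Olfr1508. The labels give no litter, batch or date that would tie these animals together.

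**Figure D4:**
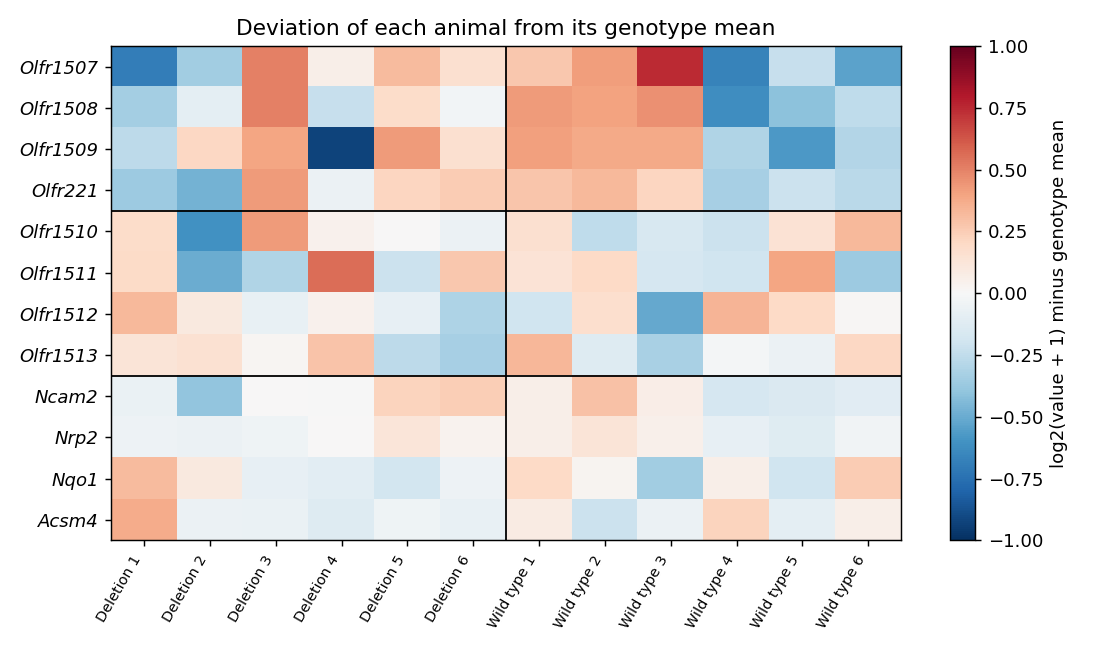
Colours give, for each of 6 deletion and 6 wild-type animals, the log2(value + 1) of a gene minus the mean of the animal's own genotype, for Olfr1507, Olfr1508, Olfr1509 and Olfr221 (top), Olfr1510 to Olfr1513 (middle) and zone markers (bottom). In the top block wild-type replicates 1, 2 and 3 lie above and replicates 4, 5 and 6 below their mean, and the middle block does not share this pattern.

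Over the 12 animals, deviations of Olfr1507 from the genotype mean correlated with those of Olfr221 at r = 0.90 and with those of Olfr1508 at r = 0.89, so that Olfr221 was number 9 and Olfr1508 number 12 of 17319 genes most like Olfr1507. Olfr1508 and Olfr221 correlated at 0.84, Olfr1508 and Olfr1509 at 0.80, Olfr1509 and Olfr221 at 0.61, and Olfr1507 and Olfr1509 at 0.60. These correlations are descriptions over 12 libraries, share library and scaling, and carry no test. Against the adjacent genes, Olfr1507 gave 0.03 with Olfr1510, 0.07 with Olfr1511, -0.75 with Olfr1512 and -0.45 with Olfr1513. Olfr1510 to Olfr1513 thus did not share the pattern of Olfr1507. Without deletion replicates 2 and 3, over 10 libraries, Olfr1507 correlated at 0.92 with Olfr221, 0.90 with Olfr1508 and 0.63 with Olfr1509, and Olfr1508 and Olfr1509 at 0.80. Over these libraries Olfr221 correlated at 0.91 with Olfr1508 and 0.77 with Olfr1509, and Olfr1507 gave -0.45 with Olfr1510.

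By this measure, receptors on other chromosomes were among the genes most like each H element receptor. For Olfr1507 they were Olfr726 of chromosome 14 (r = 0.94), Olfr1178 of chromosome 2 (0.94) and Olfr329-ps of chromosome 11 (0.92). For Olfr1508 they were the non-coding RNA RP23-95L9.6 of chromosome 13 (0.96), Olfr1260 of chromosome 2 (0.96) and Olfr1416 of chromosome 1 (0.95). For Olfr1509 they were Olfr536 of chromosome 7 (0.93), Olfr1195 of chromosome 2 (0.89) and RP24-76E2.3 of chromosome 13 (0.89). For Olfr221 they were Mterf3 (0.94), RP23-418O21.5 (0.93) and Il1rap (0.92), none of them a receptor. Without deletion replicate 3, or without replicates 2 and 3, 1 of these 3 was still among the 10 genes most like Olfr221. Among the 50 most like genes, class II receptors made up 54% for Olfr1507, 56% for Olfr1508, 32% for Olfr1509 and 26% for Olfr221, beside 4.96% of all tested genes. Receptors of chromosome 14 were 6, 4, 2 and 2 of the 50 in the same gene order, and 36 of all 17320 tested genes. These counts include other members of the 4 genes.

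Ventral markers of the epithelium split the wild-type animals in the same way, and dorsal markers did not. The ventral marker Ncam2, a cell adhesion molecule, had 2063, 2428 and 2074 normalized counts in wild-type replicates 1, 2 and 3, and 1762, 1794 and 1825 in replicates 4, 5 and 6. Nrp2, a guidance receptor of ventral axons, likewise had 2993, 3133 and 2974 against 2715, 2640 and 2808. The dorsal marker Nqo1 had 6388, 5699 and 4391 in wild-type replicates 1, 2 and 3 against 5824, 4861 and 6656 in replicates 4, 5 and 6, and Acsm4 had 11429, 9286 and 10348 against 12614, 10083 and 11260. Both are enzymes, and their values overlapped between these animals. The deviations of Olfr1507 correlated with those of Ncam2 at 0.66 and of Nrp2 at 0.68, and with those of Nqo1 and Acsm4 at -0.66 and -0.67, the last at -0.29 without deletion replicate 1 and wild-type replicate 4, the farthest from the median. For Olfr1508 the 4 correlations were 0.56, 0.69, -0.30 and -0.47, for Olfr1509 0.41, 0.59, -0.10 and -0.18, and for Olfr221 0.82, 0.70, -0.43 and -0.51, in the same marker order. Over all 6 deletion animals the correlations with Ncam2 and Nrp2 were weaker than in wild-type animals. For Olfr1507 they were 0.58 and 0.51 against 0.80 and 0.78, and for Olfr1508 0.28 and 0.21 against 0.85 and 0.91. For Olfr1509 they were 0.13 and 0.21 against 0.84 and 0.94, and for Olfr221 0.77 and 0.50 against 0.91 and 0.91. Without deletion replicates 2 and 3, over 10 libraries of both genotypes, they were 0.80 and 0.80 for Olfr1507 and 0.84 and 0.91 for Olfr1508. Over the same libraries they were 0.80 and 0.80 for Olfr1509 and 0.93 and 0.88 for Olfr221. A difference between genotypes in these correlations was not tested. Deletion replicate 1, low for Olfr1507 and Olfr1508, had the highest Nqo1 (6589) and Acsm4 (12255) of the deletion animals. The part of the zone makeup of a sample in the levels of the 4 genes was not tested.

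Between genotypes the zone markers did not pass: 0 of 4 were called, with log2 fold changes of 0.10 for Ncam2, 0.01 for Nrp2, -0.08 for Nqo1 and -0.18 for Acsm4 (limma adjusted p from 0.955 to 0.970). The summed level of 14 tested markers of mature olfactory neurons ranged from 156111 to 202606 normalized counts in deletion animals and from 160631 to 210782 in wild-type animals, with 0 called. The other cell type marker lists gave 0 calls by limma, while edgeR and DESeq2 each called 1 marker of immature neurons. By limma, Dpysl3 alone of the 7 immature markers had an unadjusted p under 0.05, with a log2 fold change of 0.27. The median of the 7 was -0.02. Log2 fold changes were positive for 6 of 6 markers of globose basal cells and precursors (median 0.15) and 5 of 5 erythroid markers (0.28). They were positive for 0 of 3 markers of horizontal basal cells (median -0.19) and 0 of 4 of bone and fibroblasts (-0.10). Of all tested genes, 45.9% were positive. Differences in cell makeup between genotypes were not tested beyond these markers.

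The animal-to-animal spread of the H element receptors was wide among class II genes above a minimum level, which were not matched to them in level. The pooled SD of log2 values within genotypes was 0.51 for Olfr1507, number 15 from the top of 321 class II genes with a mean of at least 100 normalized counts. It was 0.40 for Olfr1508, number 39, and 0.48 for Olfr1509, number 20, beside a median of 0.27. After scaling to class II reads the SDs were 0.41, 0.32 and 0.43 in the same gene order, numbers 19, 53 and 16, beside a median of 0.24. Olfr221, of lower level, had an SD of 0.33. Without deletion replicates 2 and 3 the SDs were 0.52 for Olfr1507, 0.41 for Olfr1508, 0.50 for Olfr1509 and 0.30 for Olfr221, beside a median of 0.26.

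None of the genes whose products bind receptor enhancers or act in receptor choice passed the test. Of 25 genes listed as such, all were tested, 0 were called in either direction by limma, edgeR or DESeq2, and 0 had an unadjusted limma p under 0.05. Their median log2 fold change was -0.01, with a range from -0.17 to 0.08. Lhx2, a homeodomain factor that binds receptor enhancers, had 2917 normalized counts in deletion and 2805 in wild-type animals. Its cofactor Ldb1 had 1566 and 1632, and Ebf1 had 4381 and 4287, in the same order.

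Promoter windows in RefSeq (GRCm38.p6) were found for Olfr1508, Olfr1509 and Olfr221. The Olfr1508 window, chr14:52467412-52467711 on the minus strand, spans the GENCODE start of the gene, while the windows of Olfr1509 and Olfr221 lie at the coding exon, 7403 and 6350 bp from the GENCODE starts. On both strands none of the 3 held the letters CCCNNGGG (core of the Ebf site), TAATTA or TAATTG (homeodomain cores) or TATAAA. Of 948 receptor windows, 3.06% held the Ebf core, 18.6% TAATTA, 23.2% TAATTG and 41.0% TATAAA, and of all 32851 windows 13.7%, 5.29%, 8.0% and 13.6% did, in the same order.

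Leaving out 1 library at a time did not bring any H element receptor past the threshold, as shown by the plot of fold changes with libraries left out. For Olfr1507 the sign depended on the library, between -0.13 and 0.16. For Olfr221, which was chosen by this contrast, the fold change is a description and ranged from 0.85 to 1.03.

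**Figure D5:**
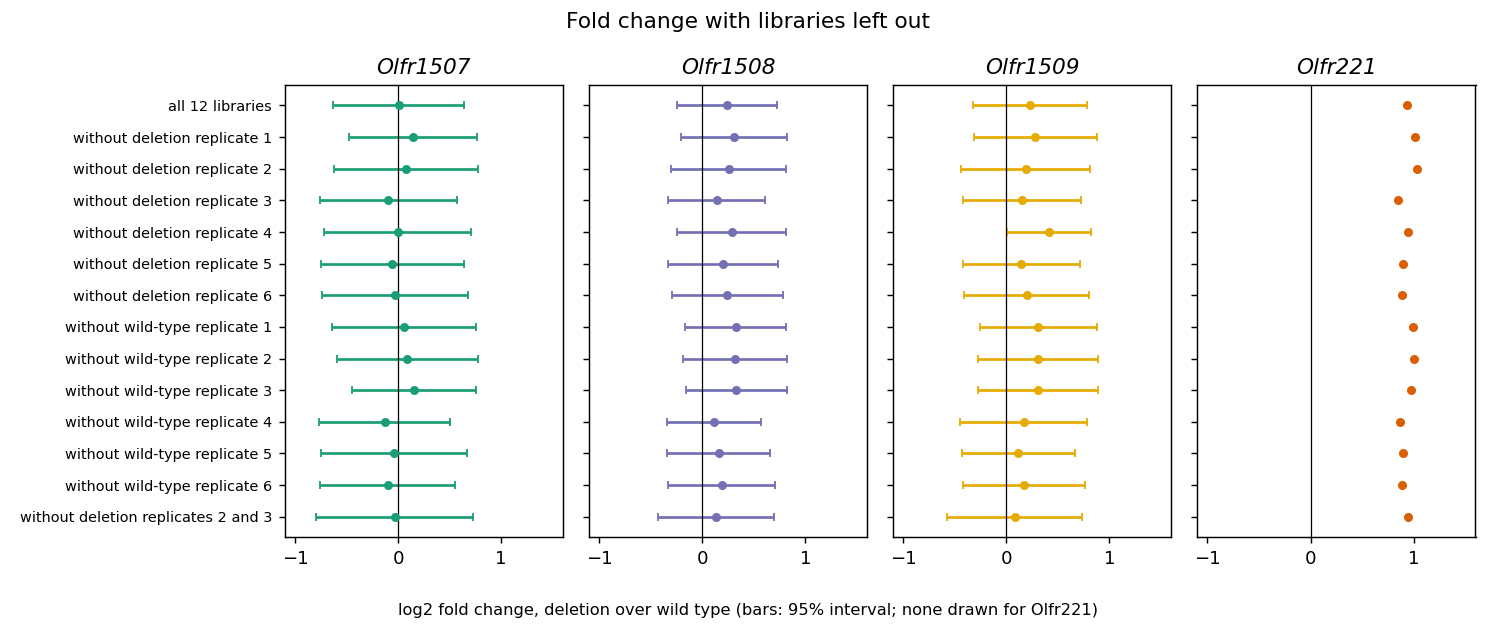
Log2 fold change, deletion over wild type (horizontal axis), of Olfr1507, Olfr1508, Olfr1509 and Olfr221 with all 12 libraries, with each library left out and without deletion replicates 2 and 3, with 95% intervals for the H element receptors and none drawn for Olfr221. Olfr1507 lies on either side of 0, between -0.13 and 0.16 with 1 library left out, and Olfr221 lies between 0.85 and 1.03.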

How the data were processed

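Total RNA of olfactory mucosa was sequenced from ribodepleted, strand-specific libraries of 6 deletion and 6 wild-type animals, per the labels' protocols. Alignment software and build, per the submitters' processing notes, were STAR 2.6.0 and GRCm38.p6, and the notes list DESeq2. Which program counted reads was not given in the sources used here. Deposited by the authors was a signal value per gene and library, which is a read count divided by a size factor. 100% of values came out as whole reads within 0.01 of a read, so reads were recovered. The authors also deposited a log2 fold change (wild type over deletion), its Wald score, which was not used, and a p-value with its adjusted value. Of the rows, 39395 were complete and 1 incomplete row was left out.

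Differences were tested with limma 3.58.1 (trend, robust; R 4.3.3) on log2 of the value plus a pseudocount of 1, two-sided, with Benjamini-Hochberg adjustment over 17320 genes kept by the filter of edgeR 4.0.16 (minimum count 10) and a threshold of 0.05. Fold changes are on the log2(value + 1) scale, which understates changes of low genes. On the recovered reads, edgeR's quasi-likelihood test and DESeq2 1.42.0 served as alternatives. Other alternatives were trimmed-mean scaling, scaling to class II reads, pseudocounts of 0.5 and 5, other filters, a replicate block, and leaving out libraries. Leaving out 1 library for the most similar genes, the spread scaled to class II reads, and levels, shares, spread and correlations without deletion replicates 2 and 3 were added after seeing the data. The test recovered known changes in data drawn for this purpose, which were larger than the changes estimated for the H element receptors. Recovery of changes as small as theirs was not tried.

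Olfr genes that lie on chromosome 7 from Rrm1 to Smpd1 were taken as class I and all other Olfr genes as class II. Positions and exon lengths came from GENCODE M21, matched for 39296 rows. The genes and lists were chosen with earlier results of these data known. Named beside the 4 genes were receptors within 200 kb of them, the 2 nearest receptors on each side of Olfr221, class II genes just above and below it in fold change with a mean of at least 20, the 3 genes most correlated with each, and Lhx2, Ebf1, Ldb1, Omp and Gap43. Olfr432, Olfr986, Olfr1415, Olfr742, Olfr49, Olfr536, Olfr727, Ncam2, Nrp2, Nqo1, Acsm4 and Dpysl3 were named after their values were seen. Counting errors cover the sampling of reads only.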

Additional observations from a re-analysis of the deposited data

Results flagged for a closer look

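In 2 of 54 sets of 6 libraries, 1 value lay far from the other 5, where chance alone gives about 2.7. Ldb1, the cofactor of Lhx2 at receptor enhancers, had 1853 normalized counts in deletion replicate 2, and the other 5 animals of this genotype lay between 1422 and 1577. Acsm4, a marker of the dorsal epithelium, had 12255 normalized counts in deletion replicate 1, and the other 5 lay between 8685 and 9198. The same animal had the lowest Olfr1507 and Olfr1508 values of its genotype.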

How the results depend on the processing

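Olfr1508 and Olfr1509 kept their direction and stayed below the threshold under every alternative run, with log2 fold changes from 0.09 to 0.33 (adjusted p from 0.701 to 1.00) and from 0.08 to 0.41 (0.755 to 1.00). Olfr1507, at 0.01, turned to -0.023 with edgeR, -0.021 with DESeq2, -0.15 with class II scaling and -0.032 without deletion replicates 2 and 3, and ranged from -0.13 to 0.16 with 1 library left out (adjusted p from 0.622 to 1.00). The cause was not tested. Olfr221 stayed between 0.79 and 1.03 under 19 alternatives. The count of chromosome 14 receptors called higher, which includes Olfr221 and so rests on its choice, was 1. It was 0 to 1 with 1 library left out (0 without any of deletion replicates 3 to 6 or wild-type replicates 4 to 6), and 2 (Olfr221 and Olfr49) without deletion replicates 2 and 3. Same-numbered animals were not treated as pairs. Their deviations from the genotype means correlated at -0.243 to -0.007, and 0 of 6 animals matched best with their number. These values cannot show whether same-numbered animals were littermates or were handled together. With the replicate block the count of chromosome 14 receptors called higher was 0, and the H element receptors kept 0.01, 0.24 and 0.23. Class II scaling moved the median of all genes from -0.01 to -0.17. The few reads of Olfr221 and the spread between animals limit these results.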

Other observations

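Olfr49, a receptor of chromosome 14 outside the H element cluster, had 177 ± 67.9 normalized counts in deletion and 107 ± 25.8 in wild-type animals (SD, n = 6 each), and its log2 fold change was 1.00 without deletion replicates 2 and 3. The 3 genes most like Olfr1509 depended on 1 animal: without deletion replicate 4, 0 of them were among the 10 most like genes, and by Spearman correlation 0 were.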
